A study of Mus musculus with 2 samples.

Results

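The CpG cytosines of mitochondrial DNA were examined strand by strand in the mouse hippocampus, a brain region needed for memory. Members were the cytosines that the files place on chromosome M (build mm9) and that had at least 10 reads with a C or T call in each of the 2 libraries. They numbered 476 of 2312276 such cytosines in the whole genome, with 234 on strand F and 242 on strand R. The control region, set here as chrM:15423-16299, held 15 on each strand, and the rest of the molecule held 219 on F and 227 on R. Of 662 mitochondrial cytosines listed in either library, 186 fell short of that coverage, with at most 9 reads in the ATO and 24 in the control library. Among the 476 members, 8 had no listed partner on the other strand, and the last paragraph returns to these.

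The study set 1 library from C57BL/6 offspring exposed to 5000 ppb arsenic trioxide (ATO) against 1 library from untreated C57BL/6 mice. The dams drank ATO from before mating until the end of lactation, and their young went on drinking it from weaning to the end of the experiment. The labels give no age and do not state how many animals went into each DNA sample. DNA was enriched with a mouse Methyl-Seq capture kit and treated with bisulfite, which turns unmethylated cytosine into uracil, read as T. The level of a cytosine is therefore the percent of its calls read as C, and any cytosine that resisted the treatment for another reason also counts as C. With 1 library a group there was no replicate, so each difference below compares these libraries and not the exposures. Intervals are 95% intervals and cover counting error only.

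Mitochondrial DNA is a small circular molecule present in many copies per cell, and it encodes subunits of the respiratory chain together with the ribosomal and transfer RNAs needed to make them. Its strands are called heavy and light after their base composition. F and R are the strand names of the files and were not matched to heavy and light here. The control region is the main stretch that encodes no gene. It holds the promoters and the origin of heavy-strand replication, and part of it often carries an extra short strand that forms the displacement loop. Whether mammalian mitochondrial DNA is methylated at CpGs has long been disputed, and published bisulfite measurements differ. Mitochondrial genes are not assigned to positions here, because no mm9 annotation was used.

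Mitochondrial DNA differed from nuclear DNA most plainly in which strand was read. Strand F held 49.2% of the analysed mitochondrial cytosines and 4.83% of the 2311800 analysed nuclear ones, a difference of 44.3 points (Newcombe interval 39.9 to 48.8). Of the calls, F held 45.5% of the mitochondrial and 4.68% of the nuclear ones in the ATO library, and 48.5% and 4.62% in the control library. Mitochondrial cytosines were also deeper, with median coverages of 415 reads in the ATO and 427 in the control library, against nuclear medians of 44 and 41. Their calls were read as C in 2.06% of cases in the ATO and 1.97% in the control library, where nuclear calls gave 39.7% and 41.1%.

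Coverage along the molecule was uneven and nearly the same in shape in both libraries. The coverages of the 476 cytosines ran from 10 to 23131 reads in the ATO library and from 10 to 26161 in the control library, and they ranked alike (Spearman's rho 0.99 across cytosines that share fragments, given as a description). By the mean of both libraries, the deepest cytosine on R was position 13074, with 23131 and 26161 reads, and the deepest on F was position 6263, with 15904 and 19898. By the same mean the shallowest were position 7390 on F (15 and 13 reads) and position 1555 on R (12 and 10). Position 1555 directly follows R position 1554, the partner of F 1553. In the same sequence 1554 and 1555 cannot both be CpG cytosines on R, so 1555 is a member only as the files list it. Depth thus varied by more than 3 orders of magnitude within 1 small molecule. Cytosines with a mean of 10000 reads or more made up 12% of the members and held 58.5% of mitochondrial calls in each library.

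Which strand was deep changed from stretch to stretch. In the control region the median coverage on F was 1621 reads in the ATO and 1862 in the control library, and on R it was 11947 and 14182. Between positions 6001 and 7000 the order was the other way round, with medians of 8167 and 11174 reads on F and 2610 and 2860 on R. At the 228 CpGs analysed on both strands, the ratio of F to R coverage ran from 0.0165 to 23.9 in the ATO library and from 0.0250 to 30.7 in the control library. It ranked alike in the libraries (rho 0.96), and the same strand was the deeper one in both at 218 of the 228. F was the deeper strand at 71 CpGs in the ATO and 75 in the control library.

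A stretch of 1782 bp held no analysed cytosine on either strand. It lay between position 7486 and position 9268, and its 44 listed cytosines had at most 6 reads in the ATO and 9 in the control library. Of the 17 windows of 1000 bp, the window from 8001 to 9000 was thus the only one without a member. The 6 members between 7001 and 8000 were all on F, with medians of 24 and 18 reads. Levels of this stretch are not reported.

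**Figure D1:**
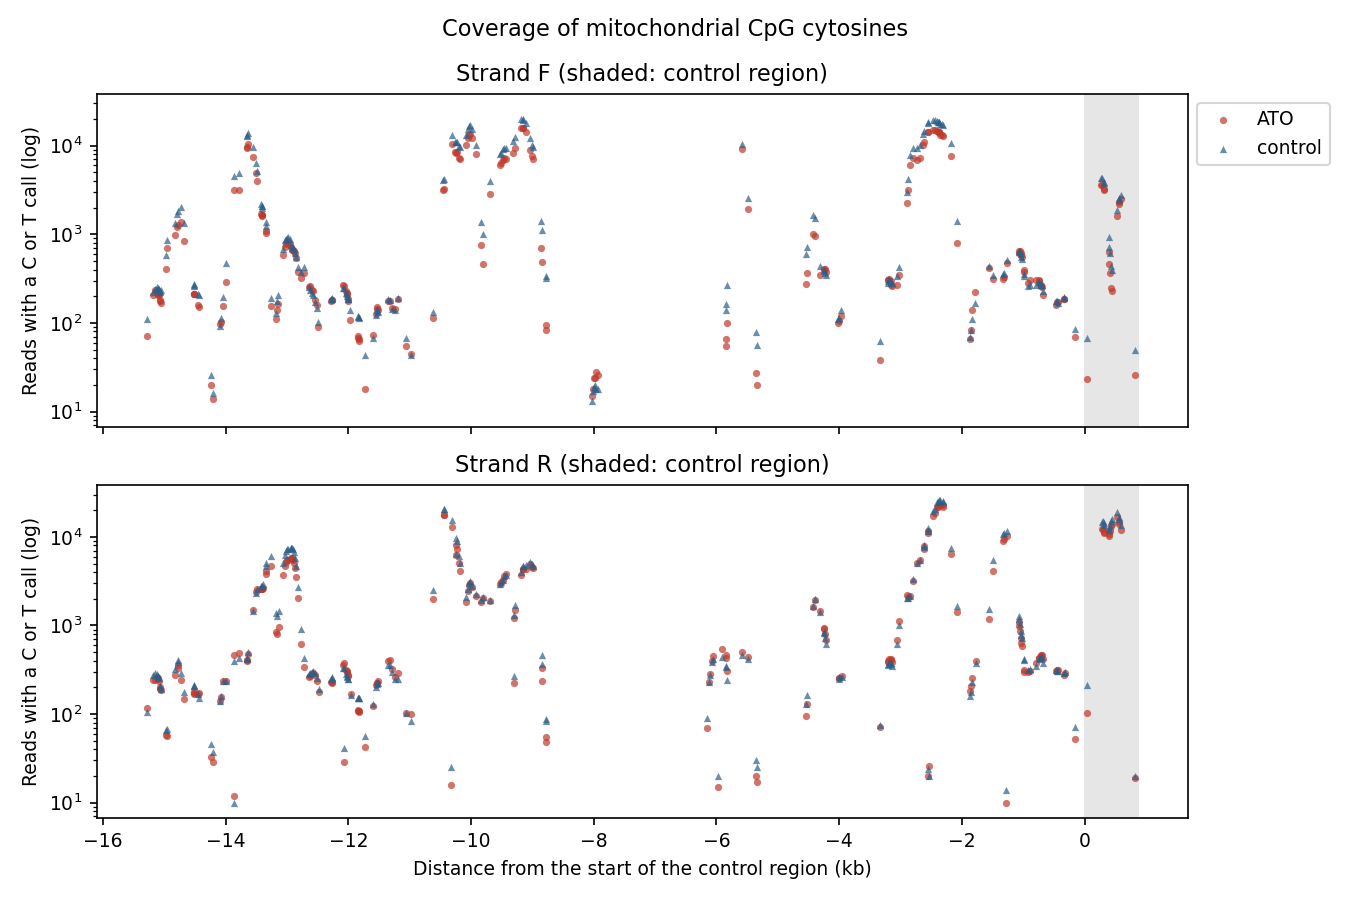
Coverage of each of the 476 cytosines (reads with a C or T call, log axis) against its distance from the first base of the control region, for strand F above and strand R below, with ATO as circles and control as triangles. Deep and shallow stretches follow each other on each strand at the same places in both libraries, and in the control region R sits near 10000 reads or above at 13 of 15 cytosines.

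The ATO library held fewer mitochondrial calls, and the shortfall was not the same on both strands. It had 1375300 mitochondrial calls against 1668137 in the control library, or 0.930% against 1.23% of all listed calls, a ratio of shares of 0.758. Nuclear cytosines went the other way, with 1.09 calls in the ATO library for each in the control library, where mitochondrial cytosines had 0.824. How many mitochondrial genomes the tissue held and how many were captured cannot be told apart, and no test is possible with 1 library a group.

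The ratio of coverage, ATO over control, differed between strands. All ratios in this paragraph are of raw reads and are not scaled to the total calls of the libraries. Among cytosines with a mean of 10000 reads or more it ran from 0.738 to 0.802 at the 28 on F and from 0.809 to 0.945 at the 29 on R, so the strands did not overlap. The medians were 0.775 and 0.872. At 1000 to under 10000 reads the ranges overlapped, 0.496 to 0.916 on F and 0.609 to 1.11 on R, with medians of 0.763 and 0.925. Under 100 reads the order of the medians was reversed, with 0.822 on F and 0.75 on R. Among cytosines with means of 100 to under 1000 reads the medians were 0.940 on F (123 cytosines) and 0.990 on R (118 cytosines), and 38 and 55 of these were deeper in the ATO library. All 30 cytosines of the control region were shallower in the ATO library, with ratios from 0.343 to 0.95, as were 329 of the 446 elsewhere. By summed calls the ratio was 0.847 in the control region and 0.821 elsewhere. Nuclear cytosines had nearly equal median ratios on F and R, 1.07 and 1.09. Neighbouring cytosines share fragments, so these counts are not independent observations.

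**Figure D2:**
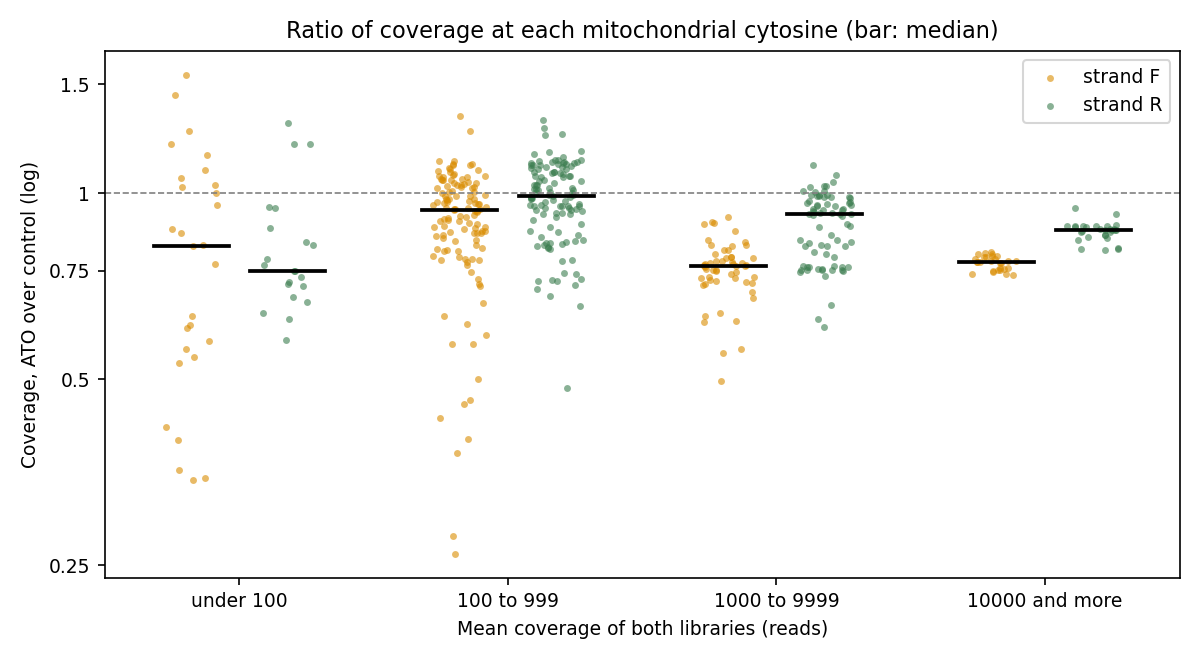
Ratio of raw coverage, ATO over control (log axis), at each cytosine in 4 classes of mean coverage, with strand F left of strand R in each class and a bar at the median. In the deepest class the F and R ratios form separate bands around 0.775 and 0.872, and at 100 to under 1000 reads both medians lie between 0.94 and 1.

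Levels were low nearly everywhere. The median cytosine read 2.55% C in the ATO library and 2.37% in the control library, with quartiles of 1.59 and 4.80% and of 1.58 and 4.48%. There were 27 cytosines without a C call in the ATO and 28 in the control library, while 26 and 25 lay above 10%. A level of 25% or more was seen at 1 cytosine in the ATO library, position 1214 on F, and at 0 in the control library. No mitochondrial cytosine could therefore be 25 points lower in the ATO library.

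The level of summed calls fell as coverage rose, on both strands and in both libraries. In classes of mean coverage, the summed level in the ATO library was 6.75% (exact binomial interval 5.71 to 7.91) under 100 reads, 3.82% (3.68 to 3.96) at 100 to under 1000, 2.33% (2.28 to 2.37) at 1000 to under 10000 and 1.73% (1.70 to 1.76) at 10000 and more. In the control library it was 6.16% (5.31 to 7.12), 3.71% (3.59 to 3.85), 2.17% (2.13 to 2.21) and 1.69% (1.66 to 1.72). No neighbouring intervals overlapped. The median cytosine did not follow this order under 100 reads on R, where it read 1.79% in the ATO and 0% in the control library, against 3.69% and 3.88% at 100 to under 1000 reads. Of the 21 cytosines of that R class, 10 in the ATO and 11 in the control library had no C call. R 1555, 3354 and 5100, which had no analysed partner on F, were among these in both libraries. The median without such positions was not computed. The first 2 classes held 10.3% and 50.6% of the members, and the mean over cytosines, 3.68% and 3.45%, lay above the level of all calls summed. The 186 cytosines left out for low coverage gave 4 C calls of 397 in the ATO library (1.01%, 0.28 to 2.56) and 5 of 573 in the control library (0.87%, 0.28 to 2.02). Of these 186, 104 had no listed partner on the other strand, as did 8 of the members. Some of these positions cannot be CpGs alongside an analysed neighbour, as given at the end, and the others were not examined.

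On F, cytosines under 1000 reads exceeded those of 1000 or more by 2.02 points in the ATO library (Newcombe interval 1.83 to 2.22) and by 1.58 points in the control library (1.42 to 1.75). On R the differences were 1.88 points (1.69 to 2.08) and 2.32 points (2.13 to 2.53). Across cytosines Spearman's rho of level with coverage was -0.41 and -0.45 on F and -0.27 and -0.26 on R. Taking each library's levels against the coverages of the other library gave -0.45 and -0.40 on F and -0.27 on R in both. Points share a library, fragments and depth, so these are descriptions. Cytosines with no C call were also the more frequent the lower the coverage. Of those under 100 reads, 32.7% in the ATO and 44.9% in the control library had none, against 0 at 1000 reads or more. Had 10 reads been drawn from each cytosine, the expected share without a C call would have been 58.7% and 68.8% under 100 reads and 84.1% and 84.5% at 10000 and more, by exact hypergeometric probabilities.

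**Figure D3:**
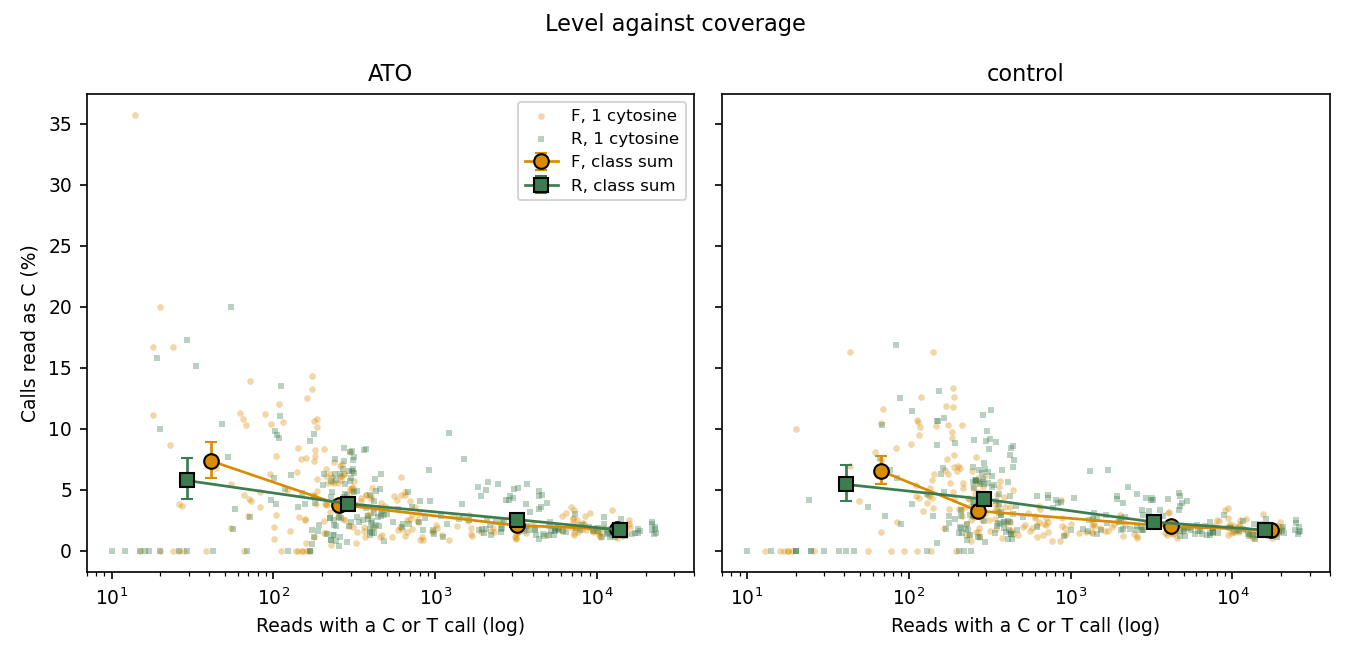
Level (calls read as C, percent) against coverage (log axis) in the ATO library, left, and the control library, right. Small points are single cytosines, and large joined points are the summed levels of 4 coverage classes with exact binomial 95% intervals, for F and R; these come down to about 1.7% in the deepest class on both strands.

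Within a CpG, the strand read less deeply tended to be the higher one. This held at 142 of 228 CpGs in the ATO library (62.3%) and at 132 of 228 in the control library (57.9%). The median of the deeper minus the shallower strand was -0.48 and -0.34 points. Where the coverages differed at least 5 times, the shallower strand was higher at 28 of 48 CpGs in the ATO and at 38 of 50 in the control library. In the ATO library the 34 CpGs with R at least 5 times deeper split evenly, 17 against 17. No test was run on these counts.

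Between the strands, summed calls gave a lower level on F than on R outside the control region. The levels were 2.02% on F and 2.25% on R in the ATO library, a gap of -0.23 points (Newcombe interval -0.29 to -0.18). In the control library they were 1.91% and 2.18%, a gap of -0.26 points (-0.31 to -0.22). Two-sided Fisher's exact tests of the summed calls gave p = 2.0e-18 and 2.2e-28, adjusted over 4 comparisons. These tests count calls as independent. With counts divided by the spread among cytosines, Fisher's exact test gave unadjusted p = 0.036 in the ATO and 0.0093 in the control library. In the control region the levels were 1.68% on F and 1.63% on R in the ATO library and 1.5% and 1.59% in the control library. Those gaps, 0.052 points (-0.11 to 0.23) and -0.091 points (-0.24 to 0.064), were within counting error (Fisher's exact test, adjusted p = 0.55 and 0.33).

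The gap was not spread evenly over the molecule. At 10000 reads and more F and R read 1.76% and 1.70% in the ATO library and 1.69% and 1.69% in the control library, with differences of 0.053 points (interval -0.0047 to 0.11) and -0.0030 points (-0.054 to 0.048). At 1000 to under 10000 reads F was lower by 0.48 points in the ATO library (2.07% against 2.55%) and by 0.35 points in the control library (1.99% against 2.34%). At 100 to under 1000 reads it was lower by 0.97 points in the control library (3.26% against 4.23%), while the ATO library showed 3.78% and 3.86%, a difference within counting error (-0.35 to 0.19). Weighting every cytosine alike, the mean over F minus the mean over R outside the control region was 0.45 points in the ATO library and -0.048 in the control library, so the direction in the ATO library depended on the weighting. Without the 131 cytosines that stood out in both libraries, described below, the gap was -0.044 points in the ATO library (two-sided Fisher's exact test, p = 0.099) and -0.10 points in the control library (p = 1.9e-05 by the same exact test). Those cytosines were chosen by their levels, so these p-values only describe what remains and do not test the gap.

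Single CpGs showed a spread between strands far wider than the average gap. F minus R averaged 0.22 points in the ATO library (SD 3.16, n = 228 CpGs) and -0.086 in the control library (SD 2.70), and ran from -13.7 to 18.5 and from -15.3 to 10.3. Levels on the strands of a CpG ranked alike to a moderate degree, with rho of 0.52 and 0.54. The sign was the same in both libraries at 144 CpGs, with F higher at 64 and R higher at 80. At 44 of them the interval of the difference lay off 0 in the same direction in both libraries, and R was the higher strand at 34 of these.

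The largest gaps of 1 sign in both libraries were at 5 CpGs. At positions 6639 and 6640 F read 6.32% and R 20% in the ATO library, and 3.24% and 12.5% in the control library. At the neighbouring CpG, 6642 and 6643, F read 3.61% and R 10.4% in the ATO library, and 1.57% and 16.9% in the control library. These lie 3 bp apart, so their reads are largely the same, and R was the shallower strand at each (55 and 48 reads in the ATO, 88 and 83 in the control library). The CpG at 6131 and 6132 was far deeper, with 9516 reads on F and 1508 on R in the ATO library, and 12685 and 1710 in the control library. Its levels were 1.59% on F and 7.49% on R in the ATO library, and 1.39% and 6.61% in the control library. The opposite sign was seen at 3155 and 3156, with 10.6% on F and 4.41% on R in the ATO and 12.6% and 5.73% in the control library. It was also seen at 14988 and 14989, with 14.4% and 6.35% in the ATO library and 11.8% and 6.47% in the control library.

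The control region read lower than the rest of the molecule. On R, the strand read most deeply there, it had 1.63% (exact binomial interval 1.57 to 1.69) against 2.25% (2.21 to 2.29) in the ATO library, and 1.59% (1.53 to 1.65) against 2.18% (2.14 to 2.21) in the control library. On F it had 1.68% (1.52 to 1.85) against 2.02% (1.98 to 2.05), and 1.5% (1.36 to 1.64) against 1.91% (1.88 to 1.94). The differences were -0.62 and -0.59 points on R and -0.34 and -0.41 points on F, with p between 1.8e-60 and 0.00017 by two-sided Fisher's exact tests adjusted over 4 comparisons. On F both calls were lost when counts were divided by the spread among cytosines (Fisher's exact test, p = 0.43 in the ATO and 0.19 in the control library). On R the same division gave p = 0.00058 in the ATO and 0.00060 in the control library by Fisher's exact test. The division does not cover likeness between neighbouring cytosines, and those of the control region form 1 block. With each cytosine weighted alike the differences in the ATO and the control library were -1.69 and -1.20 points on F and -0.42 and -2.08 points on R. The size of the gap varied between depth classes, but these sums take both strands together, so strand and depth are not separated. Among cytosines of 10000 reads and more, the 13 of the control region, all on R, read 1.62% against 1.75% at the 44 elsewhere in the ATO library (difference -0.13, Newcombe interval -0.20 to -0.064), and 1.59% against 1.71% in the control library (-0.13, -0.19 to -0.062). At 1000 to under 10000 reads (8, all on F, against 121 of both strands) the differences were -0.68 and -0.75 points. At 100 to under 1000 reads (6, of which 5 on F, against 235) the differences were -1.89 and -2.11 points. Under 100 reads (3 against 46) they were 2.14 points (-2.72 to 11.3) and 0.48 points (-2.77 to 6.02), within counting error.

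Inside the control region the 13 deep R cytosines lay between 1.10 and 2.62% in the ATO library and between 0.96 and 2.59% in the control library. Their order was largely shared. Position 15993 read 2.62% (370 of 14105 calls) and 2.59% (417 of 16086), and position 15985, only 8 bp away, read 1.21% (179 of 14818) and 1.20% (203 of 16904). Position 15744 read 2.22% and 2.15%, and its neighbour 15739 read 1.36% and 1.31%. The intervals of each of these pairs of neighbours did not overlap in either library. Position 16012, the lowest of them in the control library, had 1.13% (135 of 11947) in the ATO and 0.96% (132 of 13715) in the control library.

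The highest readings of the control region came from shallow cytosines, and not all of them were shared. Position 16252 on R had 3 C calls of 19 in the ATO library (15.8%, interval 3.38 to 39.6) and 0 of 20 in the control library (upper limit 16.8%). Position 15466 on R read 9.80% of 102 calls in the ATO and 1.90% of 211 in the control library. Position 15465 on F read 8.70% of 23 calls in the ATO and 10.4% of 67 in the control library, without standing out in both by the measure given below. Position 15950 on F, the only F cytosine of the control region that stood out in both libraries by the measure given below, read 2.90% of 1621 calls in the ATO and 2.15% of 1862 in the control library.

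Sites that stood out in both libraries were taken as those whose lower exact limit lay above the summed level of their strand and region in each library. They were chosen by their levels, so what follows is a description. They numbered 131, with 61 on F and 70 on R, and 57 cytosines lay below the summed level by the same measure. Their median level was 5.64% in the ATO and 5.52% in the control library, and 93 of them had a mean coverage under 1000. Set against the summed level of their own strand and coverage class instead, 63 cytosines stood out, 57 of them among the 131. The strands often stood out together, at 44 CpGs, while F alone did so at 17 and R alone at 26.

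The highest of them on F were in 2 places. In the first, position 3455 read 12% in the ATO library (13 of 108 calls, interval 6.57 to 19.7) and 16.3% in the control library (23 of 141, 10.6 to 23.5). Position 3570 read 13.9% (10 of 72) and 12.6% (15 of 119), and position 3155 read 10.6% (19 of 179) and 12.6% (24 of 190). In the second, position 14988 read 14.4% (25 of 174, 9.52 to 20.5) and 11.8% (20 of 169, 7.38 to 17.7), and position 14978 read 13.3% (23 of 173) and 10.3% (18 of 175). The lower limits of these 5 lay above 6% in both libraries, some 3 times the summed F level. All were read by fewer than 200 calls.

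On R the highest were at position 6640, with 20% in the ATO library (11 of 55 calls, interval 10.4 to 33.0) and 12.5% in the control library (11 of 88, 6.41 to 21.3), and at position 6643, with 10.4% (5 of 48) and 16.9% (14 of 83). Position 3571, the R partner of 3570, read 13.5% (15 of 111) and 13.1% (20 of 153), so that this CpG was high on both strands in both libraries. Positions 3586 and 3597 followed with 11% and 9.52% in the ATO and 10.6% and 10.7% in the control library. The 5 were again shallow, at 48 to 153 calls.

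Standing-out cytosines lay next to each other. Counting along each strand, they formed 36 uninterrupted runs, and 10 runs of 5 or more cytosines held 85 of the 131. The longest on F ran over 15 cytosines from 2795 to 3410, with summed levels of 6.72% (interval 5.86 to 7.66) in the ATO and 8.06% (7.10 to 9.10) in the control library at median coverages of 210 and 201 reads. On R, 10 cytosines from 3387 to 3597 had 8.56% and 7.81%. Only position 3354 parts them from R 3334 and 3345, which also stood out. It had 0 C calls of 29 and of 41 and no analysed partner on F. Run counts and lengths thus depend on members of doubtful CpG context. A further F run of 11 cytosines from 14673 to 15096, just before the control region, had 8.69% (7.61 to 9.87) and 6.08% (5.18 to 7.08). These stretches were shallow on both strands.

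A deeper stretch stood out on R. From 5373 to 6114 a run of 14 R cytosines had 4.68% (interval 4.47 to 4.90) in the ATO and 4.03% (3.83 to 4.23) in the control library, at median coverages of 2802 and 2858 reads. From 6132 to 6432 another 8 had 4.45% (4.23 to 4.68) and 4.17% (3.96 to 4.39) at 4370 and 4725 reads. On F the same spans read 2.44% and 2.27%, and 2.25% and 2.01%, at median coverages of 7126 and 9382 and of 11873 and 15429. By summed level and median coverage, R was thus the higher and the shallower strand over both spans. Single CpGs departed from this. R was the deeper strand at 5589 and 5614 in both libraries and was still the higher one there. At 5964 and 5965 F was higher in the control library, with 3.53% against 3.37%. Within the first span position 6114 on R read 9.66% of 1222 calls in the ATO and 6.55% of 1313 in the control library. The only R member between the runs is 6115, at 2.68% of 224 calls in the ATO and 1.12% of 269 in the control library. It directly follows 6114, the partner of F 6113, so 6114 and 6115 cannot both be CpG cytosines. Without 6115 the runs would join.

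**Figure D4:**
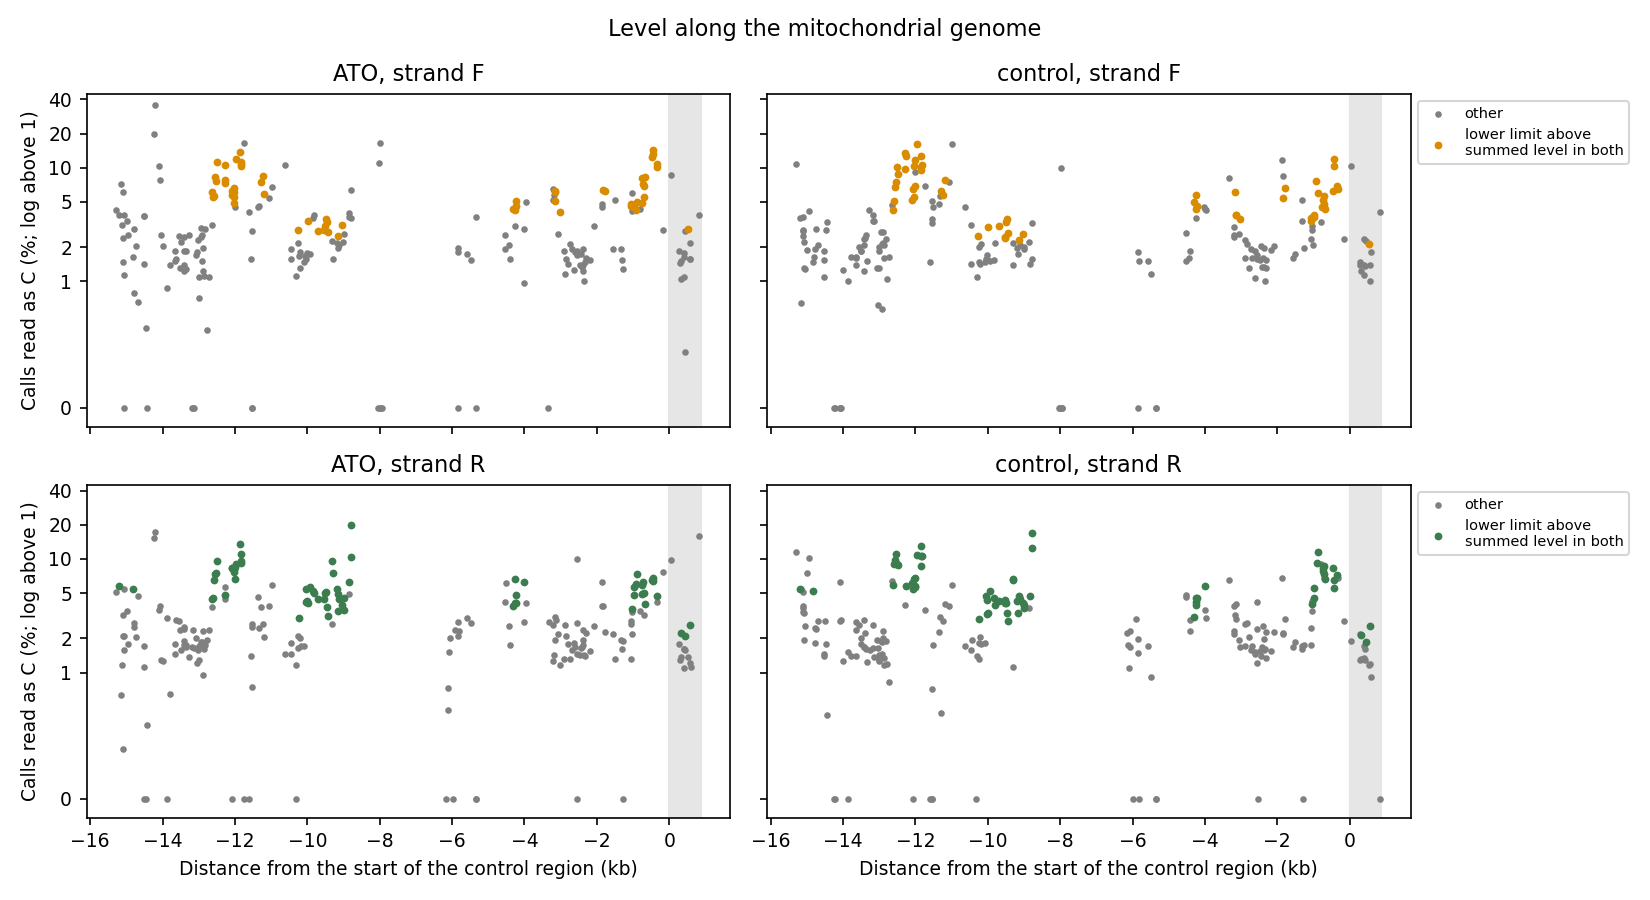
Level of each cytosine (calls read as C, percent; linear up to 1 and log above) against its distance from the first base of the control region (shaded), with ATO left of control and strand F above strand R. Coloured points are the 131 whose lower exact limit lay above the summed level of their strand and region in both libraries; they form clusters at the same places in each library.

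Chosen in 1 library and read in the other, the highest cytosines tended to be high again, the control list more than the ATO list. The 24 highest (5%) of the ATO library had a median of 12.9% there and of 7.86% in the control library, against 2.35% for the other cytosines of the control library, and 16 of the 24 lay above that. The 24 highest of the control library had a median of 8.84% in the ATO library and of 11.5% in the control library, against 2.44% for the other cytosines of the ATO library, and 23 of the 24 lay above that. The lists shared 10 cytosines, 41.7% of each. The ATO list was the shallower, at a median of 68.5 reads, against 149 reads for the control list. The other cytosines were not matched to the lists for depth.

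Agreement between libraries rose with depth. Spearman's rho of the levels was 0.28 at the 49 cytosines under 100 reads, 0.67 at 241 cytosines of 100 to under 1000, 0.77 at 129 of 1000 to under 10000 and 0.88 at the 57 of 10000 and more. The median absolute difference was 2.62, 1.28, 0.33 and 0.14 points in the same order. Among the deepest cytosines, position 5439 on F read 3.38% (416 of 12322 calls) in the ATO and 2.98% (458 of 15359) in the control library, the highest mean of that class. Position 13073, the lowest F cytosine of that class in both libraries, read 1.01% in each, with 13327 and 17585 calls. These are extremes picked by level, so no weight is put on their difference within a library being larger than that between libraries. Over all depths, the variance of levels among cytosines of a strand was 14.2 times that of counting error on F and 21.1 times on R in the ATO library, and 14.1 and 21.9 times in the control library. Within coverage classes it was 7.54 times on F and 12.8 on R in the ATO library, and 8.07 and 12.3 in the control library. The mean squared standardised difference between libraries was 1.70.

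**Figure D5:**
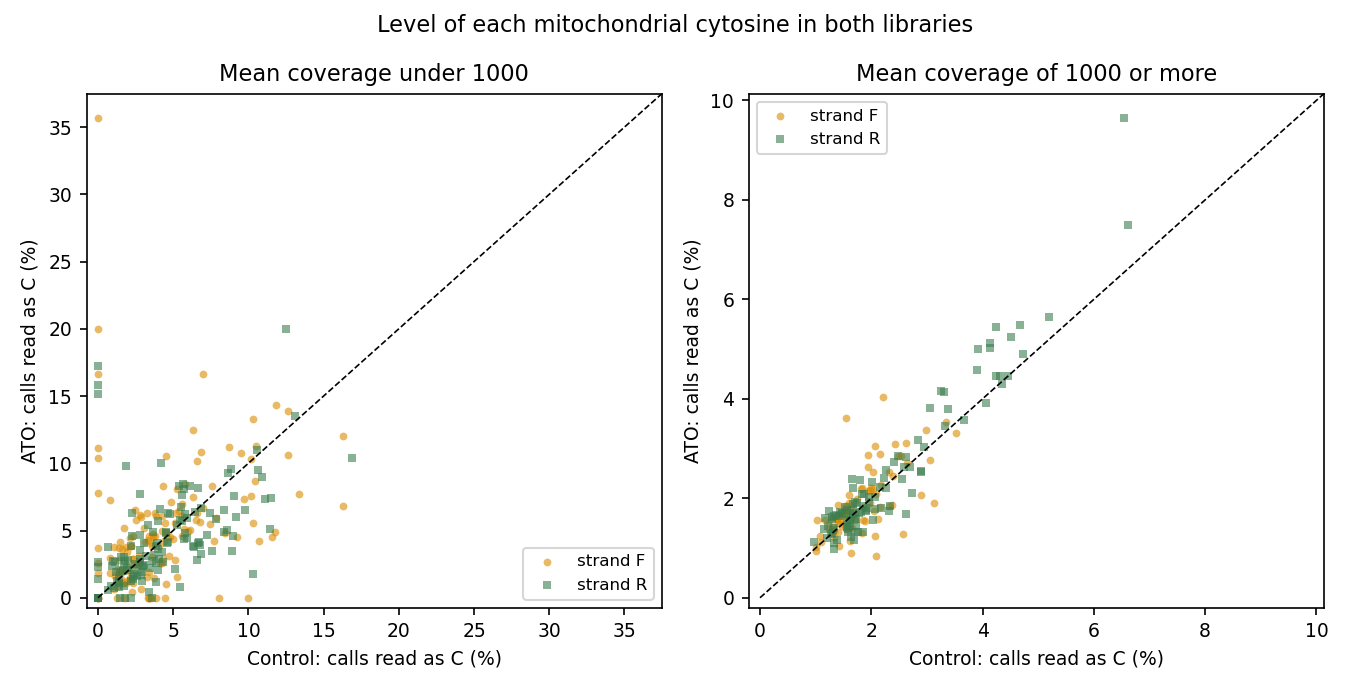
Level of each cytosine in the ATO library (vertical axis, percent) against the control library (horizontal axis, percent), for mean coverage under 1000 reads, left, and of 1000 or more, right, with a dashed line of equality. Under 1000 reads the points scatter widely and some with a level of 0 in 1 library reach over 15% in the other; at 1000 or more they keep close to the line up to about 5%.

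Few single mitochondrial cytosines passed a test of the difference between libraries. Across the genome, two-sided Fisher's exact tests with Benjamini-Hochberg adjustment over all 2312276 cytosines called 2.65% at an adjusted p under 0.05 and a difference of at least 25 points. Among the 476 mitochondrial cytosines 0 were called, and only position 1214 on F differed by that much in points. With no minimum difference 3 were called (0.63% of members), where the genome gave 3.88%. At an unadjusted p under 0.05 there were 55 (11.6% of members), 33 higher and 22 lower in the ATO library, where the genome gave 12.8%.

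The 3 were all on F. Position 263 read 7.23% (17 of 235 calls, interval 4.27 to 11.3) in the ATO and 0.83% (2 of 242, 0.10 to 2.95) in the control library, with adjusted p = 0.012 by Fisher's exact test. Position 1333 read 10.4% (10 of 96) in the ATO library and 0 of 93 in the control library, with an upper limit of 3.89% (Fisher's exact test, adjusted p = 0.042). Position 4972, far deeper, read 1.91% (61 of 3187) and 3.13% (127 of 4053), a fall of 1.22 points (Fisher's exact test, adjusted p = 0.038). None of the 3 stood out in both libraries.

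The largest differences in points were all at cytosines under 50 reads with no C call in the control library. Position 1214 on F had 5 C calls of 14 in the ATO library (35.7%, interval 12.8 to 64.9) and 0 of 16 in the control library (upper limit 20.6%). Its R partner 1215 had 5 of 29 (17.2%) and 0 of 37 (upper limit 9.49%), and position 1185 on F had 4 of 20 (20%) and 0 of 26 (upper limit 13.2%). These 3 lie within 31 bp, so some of the same fragments may be counted in each. Position 7433 on F had 4 of 24 (16.7%) and 0 of 19 (upper limit 17.6%), and position 16252 is given above. None of the 5 passed Fisher's exact test, with adjusted p from 0.18 to 0.61.

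Summed over all 476 cytosines, the ATO library read slightly more C than the control library. The levels were 2.06% (exact binomial interval 2.04 to 2.09) and 1.97% (1.95 to 1.99), a difference of 0.092 points (Newcombe interval 0.060 to 0.12). Fisher's exact test of the sums gave p = 7.9e-08 after adjustment over 9 comparisons by strand and region. The difference was 0.11 points on F (2.0% and 1.90%) and 0.071 points on R (2.11% and 2.04%). In the control region it was 0.057 points (1.63% and 1.58%), with an interval from -0.020 to 0.13. The test counts calls as independent. With counts divided by the spread among cytosines, Fisher's exact test of the overall difference gave p = 0.18, and 248 cytosines were higher and 214 lower in the ATO library.

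The difference was not alike in all depth classes. At 10000 reads and more it was 0.037 points (1.73% and 1.69%, Newcombe interval -0.0015 to 0.075), and at 1000 to under 10000 reads 0.16 points (2.33% and 2.17%, 0.10 to 0.21). At 100 to under 1000 reads the strands went opposite ways. F read 3.78% in the ATO and 3.26% in the control library, a difference of 0.52 points (0.27 to 0.78), and R read 3.86% and 4.23%, a difference of -0.37 points (-0.65 to -0.095). In that class the ATO library had 0.860 calls on F and 0.979 on R for each in the control library, and the part of depth in these differences was not tested.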

How the data were processed

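Per the submitters' processing notes, the tools were bcl2fastq, Bowtie2 and Bismark 0.19.0, which aligns bisulfite reads and calls each cytosine, with build mm9. Whether reads were trimmed, duplicates removed or reads with several matches kept is not given in the sources used here. In the deposited tables the coverage is a raw count of C and T calls per cytosine, and the authors gave C and T as a percent of it, with 2 decimals. C calls were recovered as coverage times percent C. In both libraries 100% of the products were whole within 0.005 percentage points, though above 10000 reads (52 mitochondrial cytosines in the ATO and 67 in the control library) 2 decimals do not fix it to a single read. Totals were 147924810 calls in the ATO and 135987272 in the control library.

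Fisher's exact tests ran over all cytosines of the genome (Python 3.11.15, scipy 1.17.1, statsmodels 0.14.6) and were tested on simulated data. Intervals are exact binomial (Clopper-Pearson) or, for differences, Newcombe's, at 95%. Reads may share molecules and neighbouring cytosines share reads. Classes of coverage used the mean of both libraries. Spread among cytosines is the Pearson chi-square over its degrees of freedom. Dividing counts by it still takes cytosines as independent of their neighbours.

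Members, tests and alternatives were chosen with earlier results of these data known. Named cytosines were the 5 highest per strand among those standing out, the 5 largest differences between libraries, the 5 largest strand gaps of 1 sign, and the deepest and shallowest. Others (the control region, the 3 called at any size, runs, 5439, 6114 and 13073) were picked after their values were seen. Positions are as the files give them.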

Additional observations from a re-analysis of the deposited data

Results flagged for a closer look

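In the control region the strand gap had opposite signs in the libraries. F minus R was 0.052 points in the ATO library and -0.091 points in the control library, over 15 cytosines a strand. Each interval included 0, and the difference between the libraries was not tested.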

How the results depend on the processing

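Of 84 values recomputed under other settings, 64 kept their direction and their side of the threshold. Coverage minimums of 5, 20 and 30 changed none. With no minimum difference 3 cytosines were called in place of 0. The overall difference was 0.028 points without the sites standing out (Fisher's exact test, p = 0.089), 0.23 as a mean and 0.19 as a difference of medians over cytosines, and with counts divided by the spread among cytosines it stayed at 0.092 with p = 0.18. With each cytosine weighted alike, the strand gap in the control region was -0.81 points in the ATO and 0.82 in the control library, both reversed. Without the sites standing out it was 0.18 points in the ATO (Fisher's exact test, p = 0.039) and 0.057 points in the control library, and the second of these was reversed. In the rest, weighted alike, it was 0.45 in the ATO library, reversed, and -0.048 in the control library. Without those sites it was -0.044 in the ATO library (Fisher's exact test, p = 0.099). The sites standing out were chosen by their levels, so the p-values obtained without them are descriptions and not tests. The control region's difference on F lost its call with divided counts, at -0.34 points (Fisher's exact test, p = 0.43) in the ATO and -0.41 (Fisher's exact test, p = 0.19) in the control library. Weighted alike, it was -1.69 in the ATO and -1.20 in the control library on F, and -0.42 in the ATO and -2.08 in the control library on R. Sites standing out numbered 37 at 3 times the summed level and 63 against their own coverage class, an alternative chosen after seeing the data. Other than the fewer effective counts after division, the cause was not tested. Windows of 500 bp kept the extremes of the depth ratio within 1.5 times. Under 100 reads, intervals span several points, so differences of the size seen between deep cytosines were not detectable there. No paired analysis was possible because each group has 1 library.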

Other observations

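Some listed mitochondrial cytosines had no partner. Of the 662 listed, 112 had no cytosine listed on the other strand of a CpG in either library, 89 of them on R, and 110 of the 112 carried no C call. The 104 of them that were not analysed were very shallow beside their neighbours. Of these, 79 lay within 50 bp of an analysed cytosine of the same strand, and they had medians of 2 reads in the ATO and 2 in the control library where listed, while those neighbours had medians of 4631 and 5252 reads. The neighbour was at least 1000 reads deep in both libraries at 66 of the 79. The other 8 were analysed members, with at most 224 reads in the ATO and 269 in the control library. Some unpaired R positions directly follow an analysed R cytosine whose F partner was also analysed. Examples are 13120 after 13119, 15745 after 15744, and the member 6115 after 6114. Adjacent R positions cannot both be CpG cytosines in the same sequence. Whether the remaining positions are CpGs in mm9 was not examined, since no genome was used.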
